A study of Mus musculus with 26 samples.

Results

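The regions described here are 735 broad domains of trimethylation of histone H3 at lysine 4 (H3K4me3) in mouse Early-B cells. Each was at least 4000 bp wide, and peaks of the progenitors these cells came from covered less than 50% of it. Members were taken from the Early-B peak list by 3 conditions: a width of at least 4000 bp, an overlap of at least 1 bp with a progenitor peak, and a summed overlap with progenitor peaks of less than 50% of the domain's own bp. That share of bp is called cover below. Of 48054 Early-B peaks, 4338 were at least 4000 bp wide and 4048 of these met a progenitor peak. The 735 members make up 18.2% of those 4048 (exact Clopper-Pearson 95% interval 17.0 to 19.4%). The interval treats peaks as independent, although some members are neighbours. It covers neither a spread between replicates nor the choice of limits. The other 3313 had a cover of 50% or more, and 290 broad Early-B peaks met no progenitor peak. Width and cover chose the members and are given as a description, with no test.

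H3K4me3 was measured by chromatin immunoprecipitation and sequencing in progenitors that lack Ebf1 (Ebf1-/-) and in cells made from them in culture, called Early-B. For the latter, Ebf1-/- progenitors carried EBF1.ER, a form of EBF1 delivered with the MigR1 vector, and were grown on OP9 stromal cells with SCF, FLT3-L, IL-7 and 4-hydroxytamoxifen for 2 days. Both groups therefore share the deletion of the endogenous gene, and the B cell factor in the Early-B group comes from the vector. The culture of the progenitors themselves is not stated in the labels, and differences between the groups in stroma, cytokines, vector and tamoxifen cannot be told apart from that in EBF1. The labels list 2 immunoprecipitated and 2 input samples per group, but the values used here come from 1 peak list per group, so no difference below has a replicate check and none has a p-value. The −log10 p, pileup and fold enrichment of each peak are the authors' own and describe that peak within its list. It is not known whether they average over a wide domain or hold for its highest point. Read depth is unknown. The progenitor list is shorter, with 31414 peaks, and after the Early-B list was shortened to the same number of peaks 728 members were found. Shortening dropped the Early-B peaks of lowest −log10 p and changed no width and no progenitor peak, so it cannot test an effect of depth.

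H3K4me3 marks the starts of active genes, where it usually forms a narrow band on both sides of the start site. In some genes it spreads over several kb into the gene, and such broad domains are known for genes that define a cell's identity. EBF1 and its target PAX5 are the factors that set up the B cell program, which includes the chains of the pre-B cell receptor.

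The promoters of 5 B lineage genes are shown, and all but Foxo1 were chosen beyond the rule for sequences. The starts of all 5 lie in wide Early-B domains. A progenitor peak lies over the start of Foxo1, while at the other genes progenitor peaks lie beside the start. Each run is the 250 bases just before the listed start, 5′ to 3′ on the gene's strand, from RefSeq on GRCm38.p6, the assembly of mm10. Capitals mark letters that match the EBF motif, its core or the RUNX motif TGTGGTT on either strand. The core of the EBF motif is CCCNNGGG, and the full motif has a T just before the core and an A just after it, so each full match holds a core match. The core was added after the values were seen.
Foxo1 (chr3:52268087-52268336, plus strand): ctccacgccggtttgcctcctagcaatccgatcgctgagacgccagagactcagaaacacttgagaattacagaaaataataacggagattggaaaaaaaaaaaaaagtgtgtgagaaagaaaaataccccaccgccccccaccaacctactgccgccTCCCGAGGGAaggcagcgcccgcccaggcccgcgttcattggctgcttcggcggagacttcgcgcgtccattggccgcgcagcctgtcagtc
Igll1 (chr16:16863986-16864235, minus strand): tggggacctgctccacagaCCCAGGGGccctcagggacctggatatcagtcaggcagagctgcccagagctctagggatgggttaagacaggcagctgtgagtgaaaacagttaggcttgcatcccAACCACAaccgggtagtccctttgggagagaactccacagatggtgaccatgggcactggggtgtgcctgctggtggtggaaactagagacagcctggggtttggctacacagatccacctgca
Spib (chr7:44532072-44532321, minus strand): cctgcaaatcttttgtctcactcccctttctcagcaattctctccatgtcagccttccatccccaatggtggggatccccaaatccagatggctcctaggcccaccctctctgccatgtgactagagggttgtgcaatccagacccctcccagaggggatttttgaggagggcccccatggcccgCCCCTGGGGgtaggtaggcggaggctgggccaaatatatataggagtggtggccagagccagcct
Pax5 (chr4:44710695-44710944, minus strand): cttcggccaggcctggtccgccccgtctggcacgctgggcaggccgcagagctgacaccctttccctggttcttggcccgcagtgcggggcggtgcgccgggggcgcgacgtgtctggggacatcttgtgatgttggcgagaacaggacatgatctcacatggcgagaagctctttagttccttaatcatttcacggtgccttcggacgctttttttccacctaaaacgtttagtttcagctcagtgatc
Cd79a (chr7:24897247-24897496, plus strand): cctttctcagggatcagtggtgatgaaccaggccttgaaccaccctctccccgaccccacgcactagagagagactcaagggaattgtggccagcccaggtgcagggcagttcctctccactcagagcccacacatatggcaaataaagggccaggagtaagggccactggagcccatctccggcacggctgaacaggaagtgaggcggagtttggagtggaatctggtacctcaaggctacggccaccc

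Foxo1 held the full EBF motif 92 bases before its start, and it was the B lineage member gene whose promoter was picked by the rule for sequences. Igll1 held the EBF core at base −231 and the RUNX letters at base −124, and Spib held the core at 2 overlapping places, −65 and −64. None of the motifs searched, nor the PU.1 motif GAGGAAGT, was in these windows of Pax5 and Cd79a. Of the 11 B lineage member genes with a listed start in their domain, only Foxo1, Igll1 and Spib had a match. Dntt, Irf4, Lef1, Tcf3, Vpreb1 and Vpreb3, whose promoters are not shown, had none either. The start of Foxo1 lay in a progenitor peak, and the starts of the other 4 genes did not. A match is a description of letters and no evidence of binding, and a window without a match says nothing about the factor.

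The full EBF motif was found in the listed promoters of 10 genes whose starts lie in a member domain (3.56% of 281 such genes, against 1.13% of all 17274 coding genes with a listed start and 1.02% of the 2835 genes with a start in a broad peak of 50% cover or more). The search ran over 300 bases, from 250 before to 50 after each start, on both strands. Besides Foxo1 the genes were Acp6, Chst3, Dpp4, Mesd, Pold4, Ppp1r16b, Sbno2, Supt4a and Tlnrd1, and Mesd and Tlnrd1 share 1 site between their starts. A stretch of 30 bases around the motif, in capitals, is shown for 5 of them, chosen after their values were seen.
Dpp4 (chr2:62412327-62412356, minus strand): aagtgaacatTCCCCAGGGAggattaatac
Ppp1r16b (chr2:158667077-158667106, plus strand): cccaccccttTCCCCCGGGAgctgaggctc
Pold4 (chr19:4231674-4231703, plus strand): tctctatatgTCCCAAGGGAcccaagtgga
Sbno2 (chr10:80075605-80075634, minus strand): cagcttcttgTCCCAAGGGAagtcccagag
Chst3 (chr10:60219439-60219468, minus strand): ccctggcgagTCCCCCGGGAcgcagctaag

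Of the 10 genes, Dpp4 alone had its start outside progenitor peaks. Among member promoters, the full motif was in 9 of the 253 with a start inside a progenitor peak (3.56%). It was in 1 of the 83 with a start outside (1.20%), against 0.965% of all listed promoters. The higher share in members thus lay at starts that progenitor peaks covered, and 1 match among 83 is too few to compare. Dpp4, a surface peptidase, had a domain of 4445 bp with a −log10 p of 99.1, and a progenitor peak of −log10 p 3.42 covered 14.7% of it. Ppp1r16b, a regulatory subunit of protein phosphatase, had a domain of 9950 bp with a cover of 47.3%. The EBF core alone was in 22.9% of the 336 promoters with a start in a member, in 15.8% of all 21045 listed promoters and in 19.7% of those in broad peaks of 50% cover or more. The RUNX motif was in 4.76, 4.74 and 2.79% of the same 3 sets, and the PU.1 motif in 2.38, 3.15 and 3.51%. The member promoters had a median GC content of 60.5% and a median ratio of observed to expected CpG of 0.66, against 0.57 over all listed promoters and 0.83 in broad peaks of 50% cover or more. Within the members this ratio was 0.41 for the 83 promoters whose start lay outside progenitor peaks and 0.73 for the 253 whose start lay inside. The EBF core was in 18.1% of these 83 promoters and in 24.5% of the 253.

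Members were 4002 to 21784 bp wide, with a median of 5284 bp and a middle 50% from 4561 to 6774 bp. Together they held 4.44 Mb, of which progenitor peaks covered 1.41 Mb (31.8%) and left 3.03 Mb uncovered. A member left a median of 3659 bp uncovered, and its width was a median of 2.93 times the bp that progenitor peaks covered. The cover was under 10% in 55 members, under 25% in 216 and under 40% in 493. The share of members among broad shared Early-B peaks was 16.4% at widths of 4 to 5 kb, 17.4% at 5 to 6 kb, 21.5% at 6 to 8 kb, 19.4% at 8 to 10 kb and 23.7% at 10 kb and over, so the rise was not steady.

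**Figure D1:**
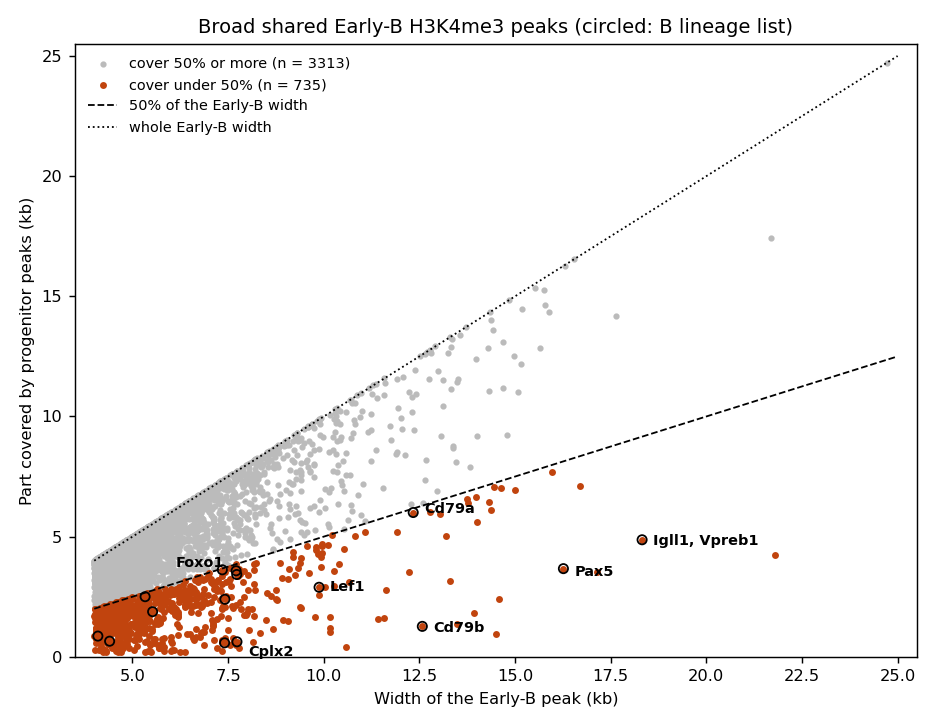
Width of each broad shared Early-B peak in kb (x axis) against the part of it, in kb, covered by progenitor peaks (y axis). The 735 members (orange) lie under the dashed line of 50%, the 3313 other peaks (grey) above it, and circles mark domains of the B lineage list; Igll1, Vpreb1, Pax5 and Cd79b lie far under the line, while Cd79a lies close to it at a cover of 48.7%.

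At the limit of 50%, the last members inside were at Ccdc186 (2357 of 4725 bp covered), Tmem44 (2206 of 4416 bp) and at Arl5c and Cacnb1 (3844 of 7693 bp), and the first peaks outside were at Cdc42se2 (2502 of 5002 bp), Hpf1 (3131 of 6258 bp) and Abraxas2 (2159 of 4302 bp). At the width limit, the narrowest members were 4002 and 4003 bp wide, with no coding gene within 1 kb, and 4010 bp at Col2a1. Peaks of 3992 bp with no coding gene, 3993 bp at Frmd6 and 3999 bp at Anxa2 fell just short.

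The progenitor part was a single peak in 547 members, 2 peaks in 169, 3 in 14, 4 in 4 and 5 in 1. In the 547 domains with 1 progenitor peak, a median of 81.7% of the uncovered bp lay on the longer of the 2 sides, and in 171 of them that side held at least 90%. This share cannot be under 50%, and it comes from the covers that chose the members, so it is a description only. In the 188 domains with several progenitor peaks, a median of 53.9% of the uncovered bp lay between those peaks. At 88 members a progenitor peak ran past the edge of the domain, and at 24 members a progenitor peak was itself at least 4000 bp wide, Cd79a with Arhgef1, Rhoh, Zeb2 and Hnrnpl among them. At those 24 places the progenitor list held a broad peak as well, in some, such as Zeb2 and Hnrnpl, wholly within the Early-B domain.

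Members differed widely in the strength of the progenitor peak. The strongest progenitor peak in a member had a −log10 p of 1.04 to 297, with a median of 11.0. It was under 10 in 356 members (48.4%), 10 to 50 in 171 (23.3%) and 50 or more in 208 (28.3%). Among the 3313 broad shared peaks of 50% cover or more, the same counts were 129 (3.89%), 257 (7.76%) and 2927 (88.3%). The limits of 10 and 50 were chosen after the values were seen. The members' own −log10 p in the Early-B list ranged from 1.76 to 192, with a median of 29.3, and their fold enrichment had a median of 6.18. In broad peaks of 50% cover or more these medians were 126 and 15.6. A −log10 p under 10 was found in 113 members (15.4%) and 93 of those other peaks (2.81%). For 5 members the q was above 0.05.

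**Figure D2:**
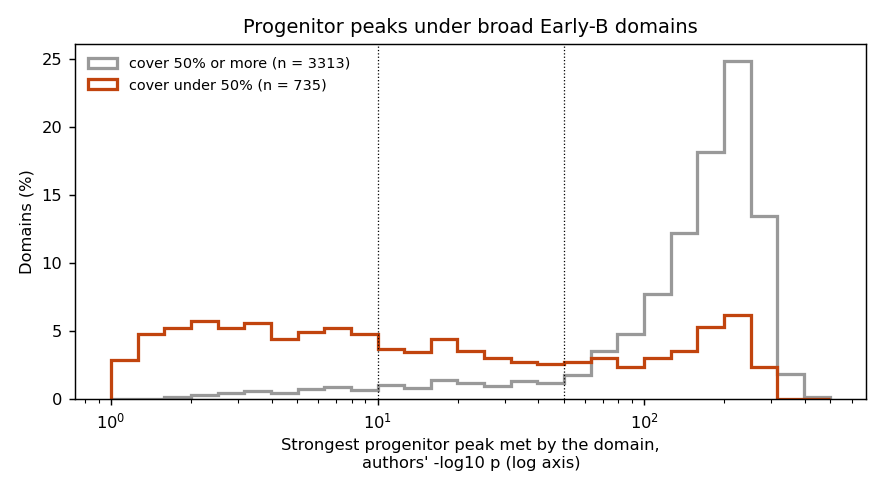
Distribution of the authors' −log10 p (x axis, log scale) of the strongest progenitor peak met by each broad Early-B domain, as a percentage of domains (y axis). Members (orange) spread over the whole range, with 48.4% to the left of the dotted line at 10, while 88.3% of the peaks of 50% cover or more (grey) lie to the right of the dotted line at 50.

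The strength of the progenitor peak went with the place of the domain. Of the 208 members with a strong progenitor peak (−log10 p of 50 or more), 83.2% lay within 1 kb of an end of a coding gene, with a median width of 5836 bp and a median cover of 42.5%. Of the 356 with a weak one (under 10), 29.8% lay at a gene end, 32.9% inside a gene and 37.4% outside coding genes, with a median width of 5050 bp and a median cover of 25.4%. Over all members, 346 (47.1%) lay at a gene end, 176 (23.9%) inside a gene away from its ends and 213 (29.0%) outside coding genes. The broad peaks of 50% cover or more were divided as 80.5%, 11.9% and 7.61%. Of the 213 members outside coding genes, 88 were within 1 kb of a long noncoding RNA gene and 125 were not. These places and strengths come from the same pair of lists as the rule, so they describe the members and support no difference between the cells.

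Some members held a start site and most did not. Of 721 members on the chromosomes of the RefSeq promoter table, 261 (36.2%) held a listed start of a coding gene, against 73.4% of the broad peaks of 50% cover or more. The table lists starts for 79.9% of coding genes. In 54 of the 261 domains (20.7%) no listed start lay in a progenitor peak, against 7 of 2370 (0.295%) of the other broad peaks. The classes were split by progenitor cover, so this contrast follows in part from the rule and is a description only. Among the 207 members with exactly 1 listed start, 158 had it inside a progenitor peak. In these the Early-B domain reached a median of 2109 bp upstream and 3489 bp downstream, and the progenitor peak 734 bp upstream and 1381 bp downstream. The Early-B domain reached further than the progenitor peak by a median of 1013 bp upstream and 1776 bp downstream, and by more on the downstream side at 95 of the 158 genes (60.1%). Among the broad peaks of 50% cover or more the counts went the other way, but over much shorter extensions. Of 1604 such peaks with 1 listed start, inside a progenitor peak, 593 (37.0%) extended more downstream and 832 more upstream. In the rest neither side was longer. The median extension in this class was only 238.5 bp upstream and 105.5 bp downstream. The cover rule keeps extensions short in this class, so the contrast in direction with the members is a description only. At the 49 genes with their start outside progenitor peaks, the progenitor peaks lay downstream in 36, upstream in 5 and on both sides in 8. These 49 included the B cell genes Pax5, Vpreb3 and Dntt, the lymphocyte surface genes Slamf6 and Sit1, and the mesenchymal genes Pdgfra, Prrx1, Fgf7 and Gas1.

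**Figure D3:**
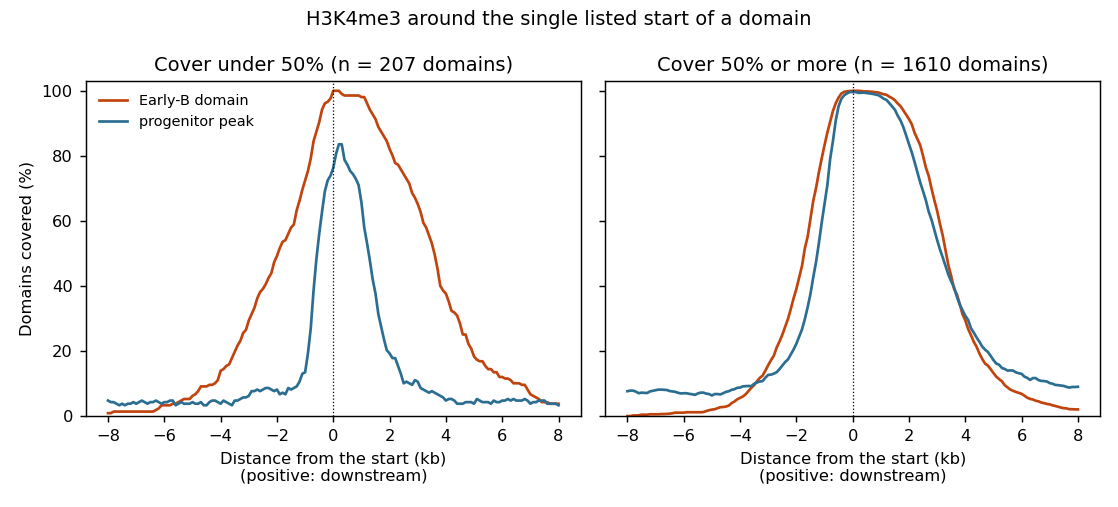
Share of domains covered (y axis, %) at each distance in kb from the single listed start of a domain (x axis, positive downstream), for 207 members (left) and 1610 peaks of 50% cover or more (right), with the Early-B domain in orange and progenitor peaks in blue. At 2 kb downstream of the start, Early-B domains covered 82.1% and progenitor peaks 19.3% of the members, against 91.3% and 83.6% of the other peaks. The classes were split by progenitor cover, so a lower progenitor share in members follows from the rule.

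Within 1 kb of the members were 568 coding genes, which is 2.63% of all 21631 and 13.2% of the 4307 genes (19.9% of all) within 1 kb of any broad shared Early-B peak. Of these genes, 32 lay wholly inside a member domain and 87 were also within 1 kb of a broad peak of 50% cover or more. The B lineage list had 16 of its 40 genes at a member, which is 66.7% of its 24 genes at broad shared Early-B peaks. They lay at 15 domains, and among them were Pax5, Cd79a, Cd79b, Igll1, Vpreb1, Vpreb3, Cd24a, Foxo1, Lef1, Cplx2, Cd38, Dntt, Tcf3, Spib and Irf4. Of the other 24 genes of the list, 8 had a broad Early-B peak of 50% cover or more, 3 (Blnk, Pou2af1 and Ikzf3) had a broad Early-B peak with no progenitor peak (0.717% of all coding genes were within 1 kb of such a peak), and 13 had no broad Early-B peak. The list and the members were chosen with results of these data known, so the count is not independent evidence of a B cell pattern. Among the 13 genes, the widest Rag2 peak was 2393 bp (−log10 p 14.2) in Early-B and 3706 bp (57.2) in progenitors. For Rag1 the widths were 1851 bp (2.12) and 2019 bp (11.0), and Cd83 had a progenitor peak only. At Vpreb2, Cd22, Blk, Bst1, Ms4a1, Cr2, Cd40, Fcrla and Ceacam1 the widest peak was wider in Early-B. Fcer2a had no peak in either list. Of the 16 genes, Tcf3, Irf4, Spib, Vpreb3, Cd24a, Cplx2, Dntt and Cd38 are described beyond the rule for named genes, after their values were seen.

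In the other direction, 112 of 2827 broad progenitor peaks that met an Early-B peak (3.96%) had an Early-B cover under 50%, and 101 coding genes (0.467%) lay within 1 kb of them. No gene of the B lineage list was among these 101, and at a share of 0.467% a count of 0 among its 40 genes is near that background. Genes of the other lists at such reverse domains were Tcf7 (1 of 28 T lineage and Notch genes) and Kit and Cd34 (2 of 20 stem and multipotent progenitor genes). Tbx21 (1 of 15 NK and innate genes), Tet3 (1 of 25 chromatin regulators), Ccr6 (1 of 14 homing receptors) and Ago2 (1 of 17 microRNA machinery genes) were the others.

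Among factors that set up the B cell program, Pax5, the commitment factor, had the fifth widest member. It ran over 16264 bp of chromosome 4 (chr4:44698526-44714789), with the start of the gene inside and 6.54% of the gene's length. Its −log10 p was 85.6 and its cover 22.6%. The stronger progenitor peak, of −log10 p 10.0, lay inside the gene, 2754 bp wide, and a weaker one of 914 bp and −log10 p 3.99 lay upstream of the start. The listed start itself was in neither. A further Early-B peak of Pax5, 4328 bp wide with a −log10 p of 3.54, had a cover of 54.7% and is no member.

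Foxo1, a forkhead factor needed for early B cell genes, had a domain of 7725 bp (chr3:52266215-52273939) with a −log10 p of 171, the highest of the list's members. A single progenitor peak of 3424 bp and −log10 p 102 covered 44.3% of it, over the start, and 3183 bp of the domain went on downstream of that peak. Foxo1 was thus marked strongly in both cell types, over a longer stretch in Early-B. Tcf3, which encodes the E proteins E12 and E47, had a domain of 7348 bp (−log10 p 100) with a progenitor peak of −log10 p 231 that covered 49.3%.

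Lef1, a partner of β-catenin, had a domain of 9877 bp (chr3:131105499-131115375) with a −log10 p of 124 and a cover of 29.3%. Its progenitor peaks, 462 and 2431 bp wide, had −log10 p of only 5.06 and 5.57. Irf4, which acts in pre-B and plasma cells, had a domain of 5330 bp (−log10 p 48.4) with a progenitor peak of −log10 p 3.05 that covered 46.9%. Spib, an ETS factor, lay wholly within a domain of 7708 bp (−log10 p 19.7), where progenitor peaks of −log10 p 49.9 and 3.93 covered 46.4%. The first of these lay within the gene and away from its start.

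Genes for 4 components of the pre-B cell receptor lay in some of the widest domains. Igll1 and Vpreb1, which encode the surrogate light chain, shared the second widest member, of 18321 bp (chr16:16854712-16873032, −log10 p 72.9), and both genes lay wholly inside it. Progenitor peaks covered 26.6% of this domain, but the strong one, of 2891 bp and −log10 p 179, was at its far end, over the start of Top3b, a topoisomerase. A progenitor peak of 1483 bp with a −log10 p of 11.8 lay between Igll1 and Vpreb1, and no bp of either gene was in a progenitor peak. For the surrogate light chain genes the overlap with progenitor peaks thus came from the ground beside them. Vpreb3, a relative of Vpreb1, had a domain of 4402 bp (−log10 p 73.9) with a cover of 14.7%.

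Cd79a and Cd79b encode the signalling chains of the receptor. The Cd79a domain, of 12338 bp (chr7:24895463-24907800, −log10 p 88.9), held all 4362 bp of the gene, and only 1.4% of the gene was in a progenitor peak. The progenitor peak there, of 6589 bp and −log10 p 129, lay over the start of the neighbour Arhgef1, a guanine nucleotide exchange factor, and gave the domain its cover of 48.7%. Cd79a is thus among the 24 members that met a broad progenitor peak, and it would drop out of the B lineage count if those were left out, which leaves 15 genes. Cd79b lay wholly within a domain of 12576 bp (chr11:106302975-106315550, −log10 p 39.7), and a progenitor peak of 1266 bp and −log10 p 4.24, in which lay 38.5% of the gene, covered 10.1% of the domain.

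Covers were 8.07 to 34.0% at Cd24a, Cplx2, Dntt and Cd38. Cd24a, a surface antigen of early B cells, had a domain of 7416 bp (−log10 p 116) with a cover of 32.3%. Cplx2, the gene of a complexin, had a member of 7731 bp within the gene (−log10 p 31.0) with a cover of 8.07%. Of the 5 Early-B peaks of Cplx2 the strongest, another peak, had a −log10 p of 100. Cplx2 was also at a broad Early-B peak with no progenitor peak. Dntt, the terminal transferase that adds bases at V(D)J joints, had a domain of 4095 bp (−log10 p 40.8) with a cover of 21.1%, and Cd38, a surface enzyme, had one inside the gene of 5526 bp (−log10 p 12.5) with a cover of 34.0%. Of the 11 list genes with a listed start in their domain, 7 (Cd79a, Dntt, Igll1, Pax5, Spib, Vpreb1 and Vpreb3) had no start in a progenitor peak. The starts of Foxo1, Irf4, Lef1 and Tcf3 were covered.

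**Figure D4:**
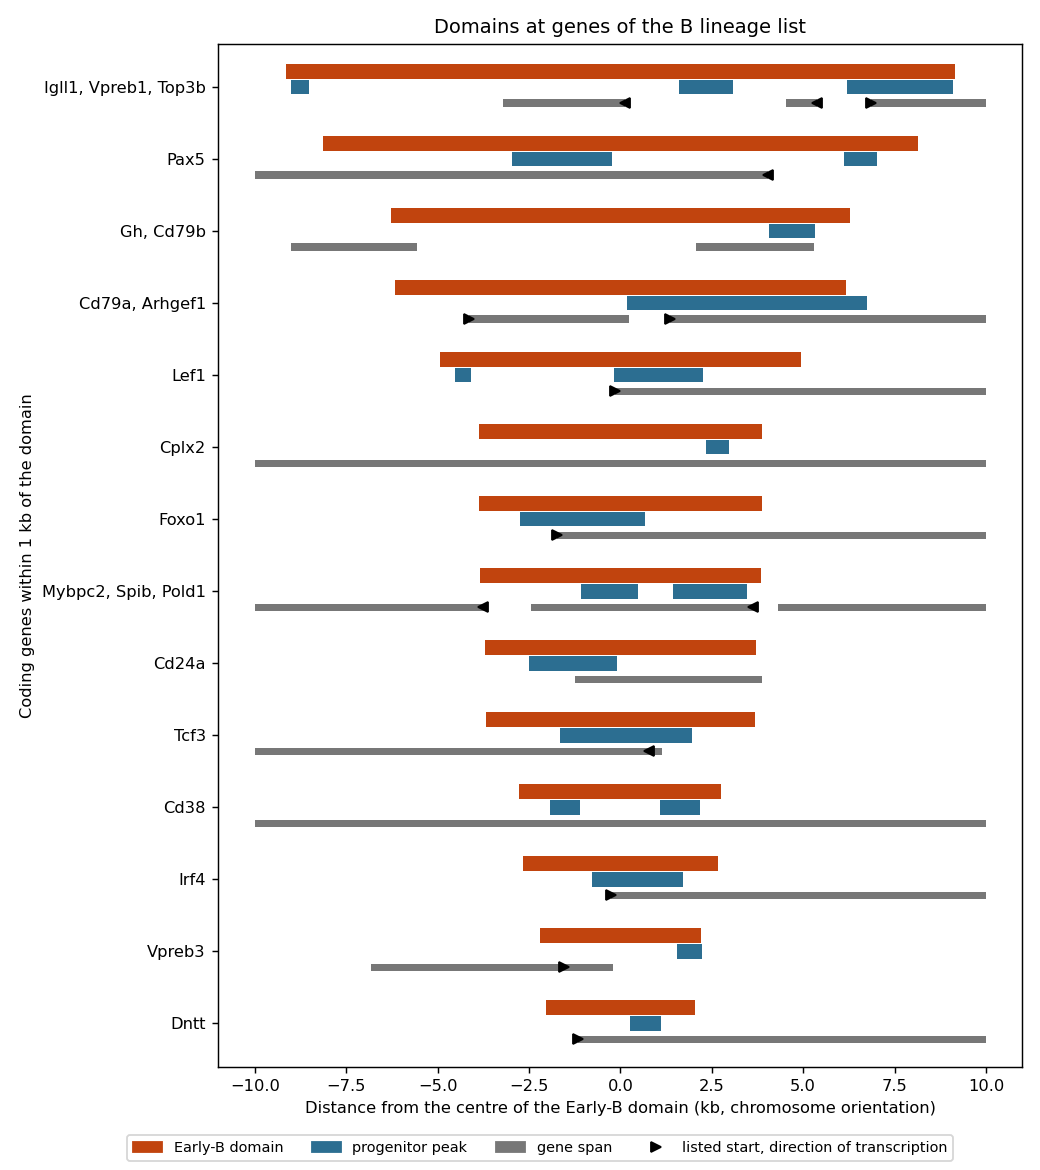
Maps of domains at genes of the B lineage list, with distance in kb from the centre of the domain on the x axis and 1 domain per line. The Early-B domain (orange) is longer than the progenitor peaks (blue) in each, gene spans (grey) are drawn up to 10 kb from the centre, and arrowheads give listed starts; at Cd79a the progenitor peak lies on the Arhgef1 side.

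For comparison, Blnk, an adaptor of the pre-B cell receptor, had an Early-B domain of 8221 bp (−log10 p 182) that met no progenitor peak. At Ebf1, whose product is supplied by the vector in the Early-B cells, the widest Early-B peak was 9893 bp with a cover of 93.5%. Both fall outside the members, on opposite sides of the rule.

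The B cell receptor signalling list had 5 of 25 genes at a member, of 17 at broad shared peaks (29.4%). Pik3ap1, an adaptor of phosphoinositide 3-kinase in B cells, had 2 member domains 1453 bp apart, the wider of 4717 bp (−log10 p 30.3) with a cover of 38.0%. Pik3r1, a regulatory subunit of that kinase, had a domain of 6099 bp (−log10 p 51.0) in which a progenitor peak of −log10 p 106 covered 28.8%. Bank1, a scaffold protein of B cells, had 5988 bp (55.4 on the same scale) and a cover of 43.9%, and was also at a broad Early-B peak with no progenitor peak. Dapp1 and Vav2, an adaptor and a guanine nucleotide exchange factor, had weaker domains inside the genes, with −log10 p of 12.5 and 8.20.

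Lists of other blood lineages are read against the 13.2% of genes at broad shared peaks that were at a member; with few genes of a list at such peaks, a count of 0 or 1 is near that background. No gene was at a member of the 28 of the T lineage and Notch list, although 7 were at broad shared Early-B peaks, nor of the 15 erythroid and megakaryocyte genes (2 at such peaks) or the 15 NK and innate genes (3). The stem and multipotent progenitor list had 1 of 20, and 11 of its genes were at broad shared Early-B peaks. The myeloid list had 2 of 20, of only 4 at broad shared peaks (50%). They were Csf2rb, the shared receptor chain of IL-3 and GM-CSF (6537 bp, −log10 p 42.9), and Prtn3, a granule protease (6007 bp, 18.6). The list of IL-7, FLT3 and KIT signalling had 2 of 23, of 18 at broad shared peaks (11.1%). These were Flt3, with a domain of 4140 bp inside the gene (−log10 p 12.0, cover 14.4%), and Stat5b, with 7123 bp (104, cover 41.7%).

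**Figure D5:**
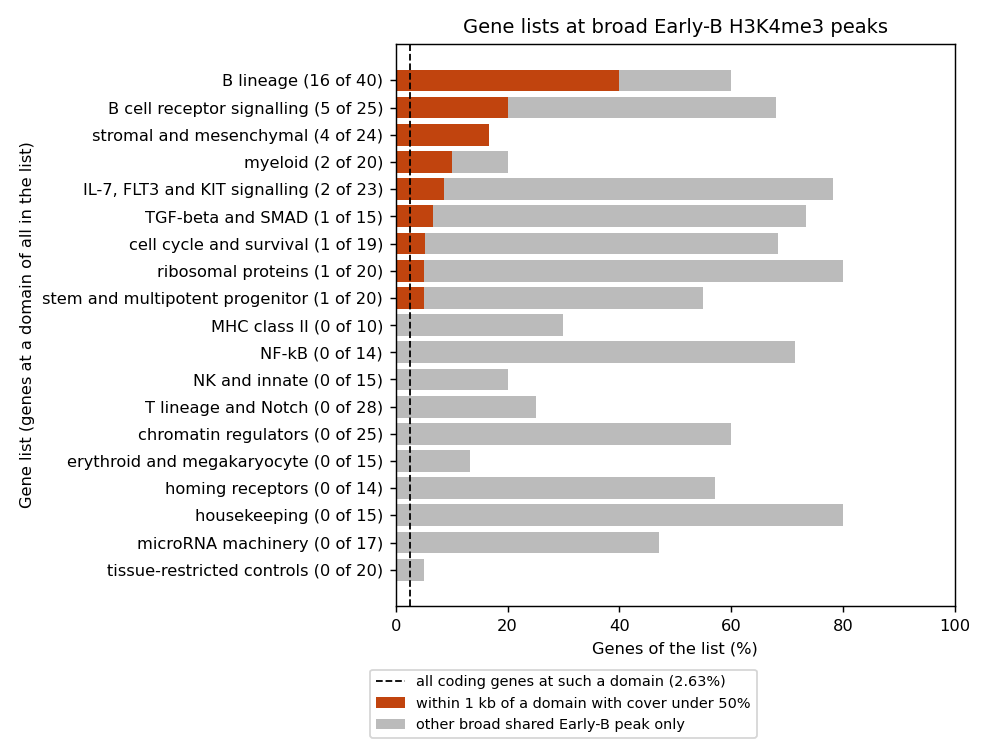
Percentage of the genes of each list (x axis) within 1 kb of a member (orange) or of another broad shared Early-B peak only (grey). The B lineage list stands at 16 of 40 against 2.63% of all coding genes (dashed line). The housekeeping list stands at 0 of 15, and 12 of its genes were at other broad shared peaks. Of all genes at broad shared peaks 13.2% were at a member, so 0 among those 12 is near that background.

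Markers of stromal and mesenchymal cells were also at members: 4 of the 24 genes of that list, which is all 4 of its genes at broad shared Early-B peaks. A further gene of the list, Twist1, a mesenchymal factor, had a broad Early-B peak with no progenitor peak. The 4 were Pparg, the factor of fat cells, Fn1 (fibronectin), Pdgfra, a growth factor receptor, and Prrx1, a mesenchymal homeobox gene. Their Early-B −log10 p was 5.27 to 8.72, so none reached 10, while all 16 B lineage genes did, with 12.5 to 171. The strongest progenitor peaks at these 4 genes had −log10 p of 1.20 to 3.61. OP9 cells are of stromal origin, and the part of stromal DNA in the members was not tested. With only Early-B peaks of −log10 p 10 or more, and the progenitor list as deposited, 622 members with all 16 B lineage genes were left. With the same limit of 10 on both lists, 454 members and 8 B lineage genes were left. At 8 of the 16 B lineage genes the strongest progenitor peak was under 10, so with it removed their domains met no progenitor peak.

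The remaining lists had 1 gene or none at a member. Those with 1 were Bmpr1a (TGF-beta and SMAD, 1 of 15), Cdkn2c (cell cycle and survival, 1 of 19) and Rps19 (ribosomal proteins, 1 of 20). None was found among 25 chromatin regulators (15 at broad shared peaks), 14 NF-kB genes (10), 10 MHC class II genes (3), 14 homing receptors (8), 17 genes of the microRNA machinery (8), 15 housekeeping genes (12) and 20 genes restricted to other tissues (1).

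Several of the widest members lay at genes outside the lists. The widest of all, 21784 bp on chromosome 15 (chr15:85664310-85686093, −log10 p 53.3), had neither a coding nor a long noncoding RNA gene within 1 kb, and a progenitor peak of 4234 bp and −log10 p 13.3 covered 19.4%. Gria2, a glutamate receptor subunit, had 17136 bp (−log10 p 32.7) of which a progenitor peak of −log10 p 7.26 over the start covered 20.5%. Rhoh, a small GTPase of blood cells, had 15976 bp, and Zeb2, a zinc finger repressor, 14987 bp, with progenitor peaks of −log10 p 239 and 170 and covers of 48.0 and 46.3%. In the Camk2d gene, of a calmodulin-dependent kinase, a domain of 14513 bp had a cover of 6.47%, and another member began 940 bp further on. Others among the 20 widest were at Crybb1 and Tpst2, Btd, Hnrnpl, Cdkn2c, Trps1, Dus2 and Nfatc3, Shroom3, and Lrba with Mab21l2. The last of these had a −log10 p of only 3.20. Of the 20 widest, 6 had no coding gene within 1 kb.

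The members with the highest −log10 p were mostly at genes with strong progenitor peaks as well. They were at Vdac3, a mitochondrial channel (192), Psat1, of serine synthesis (186), Syvn1, a ubiquitin ligase of the endoplasmic reticulum (181), Csgalnact1, of chondroitin sulfate synthesis (180), and the circadian gene Clock (177), followed by Foxo1 (171), Atad1 (168), Minpp1 (165), Rps6ka3 (155) and Ccdc186 (155). Progenitor peaks at 9 of these 10 had −log10 p between 102 and 285. Csgalnact1 was the exception, with a progenitor peak of 21.1 and a cover of 35.0%, while the covers of the others were 43.4 to 49.9%.

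The lowest covers came with very short progenitor peaks. Foxc2, a forkhead gene, had 7350 bp with a cover of 3.07%, followed by Sobp (3.22%), Gimap3, a GTPase of lymphocytes (3.65%), Arhgap35 (3.93%), Mrvi1 (3.98%) and Agbl1 (4.25%). Progenitor peaks there were 200 to 229 bp wide with −log10 p of 1.31 to 2.21. The Early-B domain at Gimap3 had a −log10 p of 55.3, and that at Arhgap35 only 3.82. Another 4 of the 10 members with the lowest cover had no coding gene within 1 kb.

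Some members had another member nearby. Within 20 kb of each other lay 33 neighbouring pairs, made of 64 of the 735 members, a distance chosen after the values were seen. The Cd79a domain began 1847 bp after a member of 10109 bp that held all of Rps19, a ribosomal protein gene. The Vpreb3 domain lay 7591 bp from one at Mmp11 and Chchd10, and the Dntt domain 11547 bp from one with no coding gene. Members on the X chromosome made up 24.2% of its 95 broad shared peaks, on chromosome 19 25.8% of 190 and on chromosome 17, the lowest, 13.6% of 199.

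Since the series is about microRNAs, the 10 microRNA genes within 1 kb of a member are given here, at 5 of the 735 domains. Of the 3313 broad peaks of 50% cover or more, 70 had a microRNA gene within 1 kb, with 84 such genes. Members were thus not richer in microRNA genes than those peaks. A domain of 5469 bp on the X chromosome (chrX:52742481-52747949, cover 46.5%) began at the 5′ end of the cluster of Mir106a, Mir18b, Mir20b, Mir19b-2, Mir92-2 and Mir363, a relative of the Mir17hg cluster that is known from lymphocytes. The hairpins lie on the minus strand, 163 to 963 bp from the nearest progenitor peak, and only that of Mir106a is inside the domain. Mature sequences from RefSeq are shown for this cluster, with the seed (bases 2 to 8) in capitals.
miR-106a-5p: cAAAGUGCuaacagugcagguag
miR-20b-5p: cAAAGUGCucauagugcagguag
miR-18b-5p: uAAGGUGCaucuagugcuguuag
miR-19b-3p: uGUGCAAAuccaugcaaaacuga
miR-92a-3p: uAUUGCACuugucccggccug
miR-363-3p: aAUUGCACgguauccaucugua

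miR-106a-5p and miR-20b-5p share the seed AAAGUGC, miR-92a-3p and miR-363-3p share AUUGCAC, and miR-18b-5p (AAGGUGC) and miR-19b-3p (GUGCAAA) have seeds of their own. The other microRNA genes near a member were Mir7681 at Hecw2, Mir1907 at Trps1, Mir688, whose hairpin lay in both the domain and a progenitor peak, and Mir6988 at Syvn1. No microRNA was measured here, and the 1 kb window says nothing about which promoter a microRNA uses.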

How the data were processed

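Only the H3K4me3 lists were used, and the samples for microRNA, Ago2 and Early-T cells stay outside what was analysed here. Each group had 1 peak list, assigned by the match of the list's name to sample titles. The tools MACS 1.4.3 and Bowtie 1.1.2 and the builds GRCh38 and mm10 appear, without roles, per the submitters' processing notes. The layout of the files resembles MACS2 output for broad regions more than that of the named version, so it is unsure which version set the widths and whether pileup, fold and p are averages over a region. Pooling of replicates, use of the input and caller settings were not given in the sources used here. As deposited by the authors, the pileup column is a coverage signal, the deposited fold enrichment is a ratio over the authors' background, and peak width is in bp. Columns with damaged names in the file headers were read as the authors' deposited −log10 p and −log10 q from their order and values. The lists are permissive: q exceeds 0.05 for 33.2% of the Early-B list and 33.4% of the progenitor list, and all peaks were kept.

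Coordinates are 1-based. Overlaps, cover and places were computed with pandas 2.3.3 and numpy 2.4.6 in Python 3.11.15, and drawn with matplotlib 3.10.9. The code was tested on 2000 simulated domains, where all 663 planted members and no other were found. Genes came from a RefSeq table of GRCm38.p6 with spans only, and starts and promoters from a RefSeq promoter table that is not complete. Exon, intron and UTR were therefore not assigned, and a gene was counted when its span came within 1 kb of a domain. All 379 entries of 19 gene lists matched by symbol or synonym. The members and lists were chosen with earlier results of these data known.

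Named were a fixed set (Pax5, Cd79a, Cd79b, Igll1, Vpreb1, Lef1, Blnk, Ebf1), genes at the 20 widest members, the 10 with most uncovered bp, the 10 of highest −log10 p and the 10 of lowest cover, up to 6 genes per list by width, and 3 regions on each side of each limit. Other names were added after values were seen. Alternatives were other limits of width and cover, filled gaps, the span of progenitor peaks, limits on p and q, lists of equal length, a larger overlap and other gene windows. Results for a few genes are not reported here.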

Additional observations from a re-analysis of the deposited data

How the results depend on the processing

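Under the alternatives run, the number of members ranged with the limits that define them. A width limit of 3000 bp gave 1261 members (16.8% of broad shared peaks), 866 coding genes and 241 reverse domains, and 6000 bp gave 262 (21.4%), 234 and 29. A cover limit of 25% gave 216 members (5.34%), 154 coding genes, 6 B lineage genes and 19 reverse domains. With the span from first to last covered bp in place of the covered bp, the share was 14.0% and 10 B lineage genes were left. When both lists were limited to −log10 p of 10 or more there were 454 members (12.9%) and 8 B lineage genes, and with q of at most 0.05 the share was 16.0%. The B lineage genes lost at the limit of 10 were those whose progenitor peaks in the domain fell below it. The other settings moved each count by less than 1.5 times, among them filled progenitor gaps (715 members, 15 B lineage genes), lists of equal length (728 and 16) and, added after seeing the data, the members without those that meet a progenitor peak of 4000 bp or more (711 and 15). No paired analysis was possible because each group has 1 peak list with no values per replicate, and for the same reason no replicate could be left out. The depth behind the lists is unknown, so how far it sets the width of a peak was not tested.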

Other observations

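Some members at genes outside the lists are given here, chosen after their values were seen. Genes of lymphocytes were among them. Slamf6, a surface receptor, had a domain of 5282 bp (−log10 p 58.7) with a cover of 22.6%, and its listed start was in no progenitor peak. Sit1, an adaptor of lymphocyte signalling, lay wholly within a domain of 6367 bp (−log10 p 32.8) with a cover of 34.0%. Cd37, a tetraspanin of B cells, lay wholly within a domain of 6609 bp (−log10 p 73.1) in which a progenitor peak of −log10 p 168 covered 42.5%. Other members were at genes known from other tissues. Cd248, a marker of stromal cells, lay wholly within a domain of 7450 bp with a −log10 p of 60.0 and a cover of 41.7%, so a low −log10 p in Early-B was not shared by all stromal genes at members. Gas1, a membrane protein of mesenchymal cells, had 5834 bp with a −log10 p of 8.05 and a cover of 13.3%.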
